A study of Sus scrofa with 21 samples.

Results

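The 9 genes described here encode laminin chains (LAMA3, LAMA4, LAMA5, LAMB1, LAMB2 and LAMC1), the nidogens NID1 and NID2, and perlecan (HSPG2), the proteins other than collagen that build the vascular basement membrane. They were chosen by name, as the rows of the deposited gene table that carry one of these pig symbols, and all 9 were found among 24358 genes. Bulk RNA was sequenced in 21 libraries, taken from 3 animals of the pig, Sus scrofa. A microbrush printed in 3D sampled peripheral arteries in 10 libraries, 5 of the kidney and 5 of the liver. A plain Nitinol wire without the brush was the negative control in 4 libraries, and surgically taken vessel, labelled aorta, was the positive control in 4. The remaining 3 libraries were whole blood.

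Pig 243K gave microbrush libraries 2, 5 and 10 from the kidney and 6 and 9 from the liver, wire 4 from the kidney, wire 1 from the liver, and blood 1 and 2. Pig 248K gave microbrush libraries 1 and 3 from the kidney and 4, 7 and 8 from the liver, wire 2 from the kidney, wire 3 from the liver, and blood 3. Every aorta library came from pig 237053, so a difference from aorta cannot be told apart from a difference between pigs. The numbers only name libraries. Libraries of a group share pigs, and p-values therefore measure the spread between libraries, which may be technical. The labels give no age, sex, strain or treatment for the pigs used here.

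Laminins are trimers of an alpha, a beta and a gamma chain that cells secrete and that polymerise on the cell surface into the first sheet of a basement membrane. Nidogens link this sheet to the type IV collagen network, and perlecan, a heparan sulfate proteoglycan, binds both and holds growth factors. In a vessel the endothelium and each medial smooth muscle cell rest on or are wrapped by such a membrane, and cells grip it through integrins and dystroglycan.

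On the Sscrofa11.1 assembly, from RefSeq gene spans, LAMA4 lies at chr1:78071990-78224564 and NID2 at chr1:181699098-181773084. HSPG2 lies at chr6:79849691-79958283 and LAMA3 at chr6:108548818-108805700. LAMB1 and LAMC1 share chromosome 9, at chr9:107670120-107747242 and chr9:124283668-124405967. LAMB2 lies at chr13:31738282-31750623, NID1 at chr14:55239327-55346948 and LAMA5 at chr17:61698370-61747795. Counts were per gene, so exons and isoforms are not resolved.

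Total estimated counts ran from 1144932 to 10188552 in microbrush libraries, from 1946286 to 11128400 in wires, from 1603229 to 3033008 in aorta and from 5634 to 5301288 in blood. Blood 2 is the library with 5634 counts and 302 detected genes, and it held 0 counts of all 9 genes. A count of 0 there allows a level of up to 532 counts in each 1000000 (CPM) for any gene, from 3 counts of its total and for counting error only, so blood 2 says little and group values of blood are from blood 1 and 3. Microbrush 4 had 3831 detected genes and counts of only 3 of the 9 genes. Wires 2 and 3, both of pig 248K, had 9715 and 10169 detected genes and held 6 and 5 of the 9. The other 17 libraries held all 9. Levels below are CPM scaled by TMM over 20 libraries, without blood 2. The scaling factors ran from 0.34 in microbrush 6 and wire 3 to 2.06 in microbrush 3, and a low factor raises every level of its library. Levels depend on gene length, so levels of different genes are not compared.

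The marker genes of the tissue were measured beside the members. The sum of 8 smooth muscle markers was 2560 to 96398 CPM in microbrush libraries, 1667 to 9890 in wires, 24179 to 50168 in aorta and 167 to 249 in blood. Of 9 endothelial markers 6 were measured, and their sum was 150 to 2850 CPM in microbrush libraries, 206 to 1618 in wires, 120 to 148 in aorta and 129 to 132 in blood. CLDN5, EGFL7 and VWF are the 3 not analysed here. The aorta thus carried its smooth muscle markers, while its endothelial sum overlapped that of blood. In bulk RNA, fewer cells of a type and less RNA per cell cannot be told apart.

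The alpha chains give a laminin its tissue type: LAMA4 and LAMA5 are the alpha chains of the endothelial and vascular laminins, and LAMA3 belongs to laminins of epithelia. LAMA4 was 100.7, 87.2, 97.3 and 180 CPM in aorta 1 to 4. In the wires it was 29.0, 0, 0 and 9.61 CPM, and in microbrush libraries it ran from 0 through a median of 56.6 to 331 CPM. All wires lay below all aorta libraries, while the microbrush range covered both groups. LAMA4 had 3 counts in blood 1 and 1 count in blood 3, or 0.62 and 0.21 CPM. LAMA5 was 336, 362, 609 and 535 CPM in aorta 1 to 4, and 118.4, 56.5, 21.95 and 209 CPM in wires 1 to 4. Microbrush libraries ran from 23.6 through 487 to 1421 CPM, with microbrush 9 highest. Blood 1 and 3 had 2.28 and 3.08 CPM of LAMA5, below every other library. LAMA3 had close group means in aorta, microbrush libraries and blood: 3.13 ± 0.85 CPM (SD, n = 4) in aorta, 3.59 ± 3.07 (n = 10) in microbrush libraries, 0.76 ± 0.97 (n = 4) in wires and 3.09 ± 0.31 (n = 2) in blood. Its highest library was microbrush 10 at 9.86 CPM, and it was at 0 in microbrush 4, wire 2 and wire 3.

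LAMB1 and LAMB2 are the alternative beta chains of vascular laminins, and LAMC1 is the gamma chain that most laminins share. LAMB1 was 116.1, 127, 122 and 242 CPM in aorta 1 to 4, and 69.3, 29.1, 0 and 21.7 CPM in wires 1 to 4. Its microbrush levels ran from 0 through 78.1 to 355 CPM, and blood 1 and 3 had 2.49 and 5.13 CPM. Aorta lay above the wires in every library, and 3 of 10 microbrush libraries lay above the highest aorta library. LAMB2 was 215, 167, 207 and 398 CPM in aorta, and 19.8, 78.9, 24.6 and 106.2 CPM in the wires. Its microbrush levels ran from 27.5 through 407 to 1661 CPM, and 5 of the 10 exceeded every aorta library. In blood LAMB2 was 6.42 and 6.37 CPM. LAMC1 was 142, 138, 102.3 and 294 CPM in aorta, and 79.75, 49.3, 31.7 and 54.1 CPM in the wires. In microbrush libraries it ran from 0 through 284 to 1274 CPM, the last in microbrush 9. Blood 1 and 3 had 14.5 and 30.6 CPM of LAMC1, and blood 3 lay close to wire 3 on this scale. Without scaling blood 3 had 46.2 CPM and wire 3 had 10.8.

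Nidogens and perlecan complete the network. NID1 levels overlapped widely: 40.2, 33.2, 26.3 and 26.8 CPM in aorta, 14.7, 3.80, 33.6 and 26.8 CPM in the wires, and 9.32 and 19.7 CPM in blood 1 and 3. Its microbrush levels ran from 0 through 33.3 to 46.8 CPM, so that all groups overlapped except aorta and blood. NID2 was 24.8, 32.0, 25.8 and 52.3 CPM in aorta, and 39.4 and 33.4 CPM in wires 1 and 4 against 0 in wires 2 and 3. Microbrush libraries had 0 through 35.2 to 157 CPM of NID2, and blood 1 and 3 had 4.76 and 6.16 CPM. HSPG2 was 1191, 919, 1384 and 2142 CPM in aorta. In the wires it split by pig: 1060 and 1297 CPM in wires 1 and 4 of pig 243K, against 46.4 and 1.06 CPM in wires 2 and 3 of pig 248K. Microbrush libraries ran from 13.4 through 1346 to 5382 CPM, and blood 1 and 3 had 2.07 and 6.57 CPM. Wires 1 and 4 of pig 243K lay within the aorta range for HSPG2 and NID2. Without scaling wire 1 had 929 CPM of HSPG2, below the lowest aorta library at 1223. No wire lay within the aorta range for the 5 laminin chains other than LAMA3. The split by pig was not particular to HSPG2. Both wires of pig 243K also lay above both of pig 248K for NID2, LAMA4, LAMA5, LAMA3 and LAMC1, but not for LAMB1, LAMB2 or NID1.

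**Figure D1:**
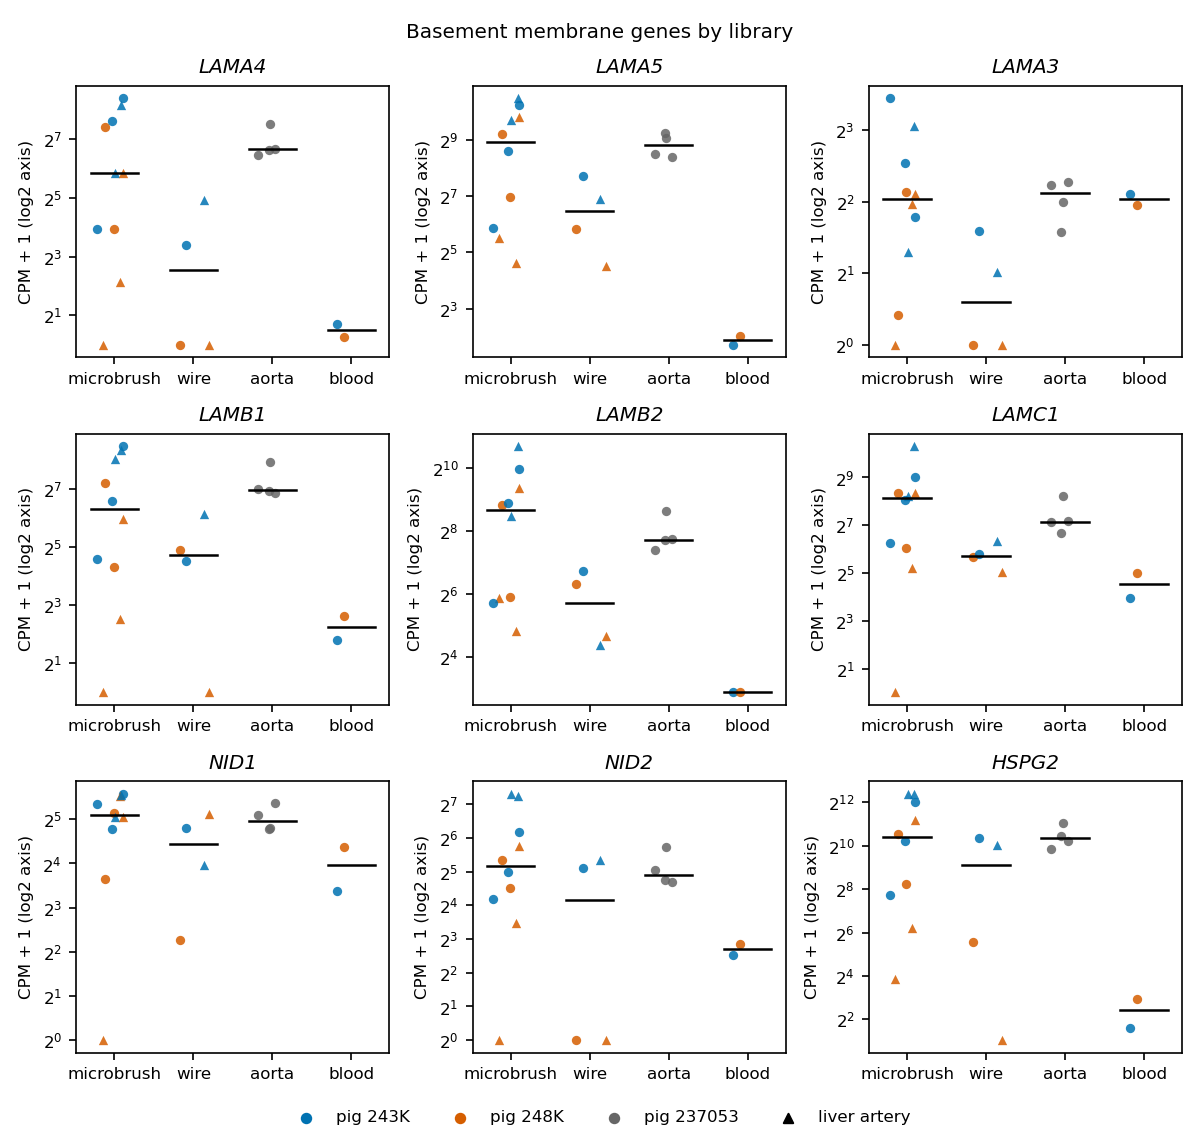
Level of each of the 9 genes in every library except blood 2, in CPM plus 1 on a log2 axis, with 1 point per library, coloured by pig, triangles for liver arteries, circles for all others and a line at each group's median. The 4 wires lie below the 4 aorta libraries for LAMA4, LAMA5, LAMB1, LAMB2 and LAMC1, and microbrush libraries reach the highest level of each gene.

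On the scaled levels, the same microbrush libraries were low or high for most members. Microbrush 3, 4, 8 and 10 were the lowest 4 for LAMA4, LAMA5, LAMB1, LAMB2, LAMC1, NID2 and HSPG2. Their smooth muscle sums, 2560 to 3606 CPM, were also the lowest 4 of the 10. Microbrush 5 and 9 had the highest smooth muscle sums, 96398 and 93384 CPM, and the highest levels of LAMA4, LAMA5, LAMB1, LAMB2 and LAMC1. Microbrush 6 had the highest endothelial sum, 2850 CPM, with 5309 CPM of HSPG2 and 157 CPM of NID2 but 56.7 CPM of LAMA4. Its scaling factor was 0.34, and without scaling it had 1800 CPM of HSPG2, 53.4 of NID2 and 19.2 of LAMA4. The unscaled HSPG2 level lay within the unscaled aorta range of 1223 to 2030 CPM. NID1 did not share this order: microbrush 8, low for the other members, had 45.3 CPM. The part of smooth muscle or endothelial content in these levels was not tested.

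**Figure D2:**
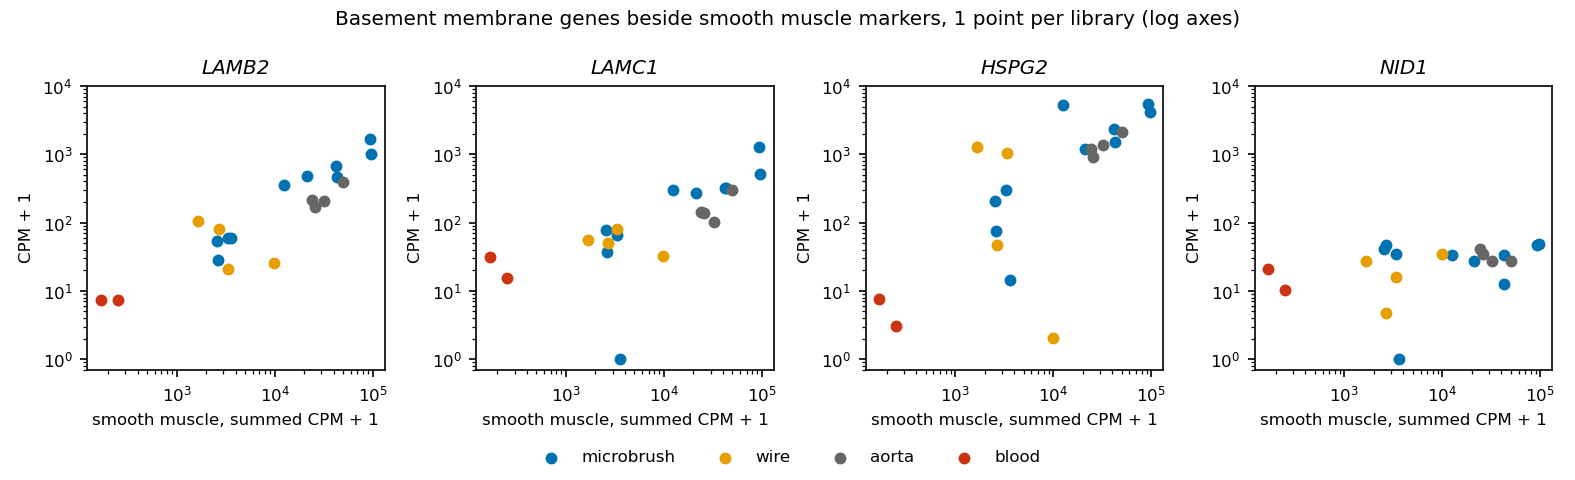
LAMB2, LAMC1, HSPG2 and NID1 in each library (vertical axis, CPM plus 1) against the summed level of 8 smooth muscle markers (horizontal axis, CPM plus 1), both axes log. Microbrush libraries with more smooth muscle marker RNA carried more LAMB2 and LAMC1, and NID1 was nearly flat from 2560 to 96398 CPM apart from microbrush 4 and 1.

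The first comparison asks whether the brush collected more basement membrane message than the wire alone. All 9 genes had a higher fitted level in microbrush libraries in the edgeR fit, though limma-voom put HSPG2 at -0.11, with a median log2 fold change of 2.14, against 0.17 over all 16439 genes tested, of which 57.6% were higher. The sizes were 3.50 ± 1.38 (SE) for LAMA4, 3.03 ± 1.10 for LAMB2, 2.54 ± 1.11 for LAMC1 and 2.40 ± 1.06 for LAMA5. LAMA3 was at 2.14 ± 1.64, LAMB1 at 2.03 ± 1.18, HSPG2 at 1.69 ± 1.25, NID2 at 1.51 ± 1.19 and NID1 at 0.66 ± 1.02. None of the 9 passed edgeR's quasi-likelihood test with Benjamini-Hochberg adjustment at 0.05, where percent called over all genes was 0 in both directions. At an unadjusted p under 0.05 edgeR counted 4 members and 518 genes. The count of members was 2 without wire 2, 2 without wire 3 and 0 without both, where the members' median was 1.42. With limma-voom the members' median was 0.64 with 0 at an unadjusted p under 0.05. The smallest adjusted p of a member was 0.928, for LAMB2. DESeq2 called 0 members, with 0.584% of all genes called higher and 0.0304% lower, and limma-voom called none. No member separated the groups, which 0.0365% of all genes did upward and 0.0182% downward. Within pig 243K 4 of 5 microbrush libraries exceeded both wires for all members but HSPG2 and NID2, for which 3 of 5 did. Within pig 248K 4 of 5 exceeded both wires for HSPG2, 3 of 5 for LAMA5 and LAMC1, and 2 of 5 for LAMB1, LAMB2 and NID1. For LAMA4, LAMA3 and NID2 both wires of that pig held 0 counts, so any count exceeded them. There 4 of 5 did, microbrush 1 with 1 count of LAMA3, which says only that these libraries were not at 0. Most markers of smooth muscle, fibroblasts and pericytes also had higher fitted levels in microbrush libraries, with none called. The 8 smooth muscle markers had a median of 4.72 with 7 higher. The 6 fibroblast markers had a median of 4.15 and the 6 pericyte markers 3.50, all 6 higher in both lists. Endothelial markers did not share this, with 3 of the 6 measured higher, a median of -0.086 and none called. Fibroblast sums were 85.6 to 64440 CPM in microbrush libraries and 35.2 to 445 in wires, and pericyte sums 0 to 4213 and 5.55 to 231. Red cell markers ran the other way, 158 to 5031 CPM in microbrush libraries and 1909 to 35220 in wires (3 of 4 markers measured). The part of these markers in the result was not tested.

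The difference between brush and wire was also fitted by pig. Fitted within pig 243K the HSPG2 difference was 1.47 on the log2 scale, and within pig 248K 5.12. The test of the product of device and pig called none of the 9 genes and none of all genes in edgeR. LAMA4 and NID2 had an adjusted p of 0.176 in it, with an unadjusted p of 0.0110 and 0.00365, and their wires of pig 248K were at 0, so no fold is given there. DESeq2 called NID2 in that test, with 7.46% of all genes called in the same direction. Without microbrush 4 edgeR called NID2, with an adjusted p of 0.0263, and the share of all genes called in that setting is not given here. Wires 2 and 3 are also those with the fewest genes detected among wires. Without them HSPG2 was at 0.63, NID2 at 0.42 and LAMB2 at 2.80. For the product of device and organ edgeR called no member, and the smallest unadjusted p of a member was 0.148, for LAMB2.

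**Figure D3:**
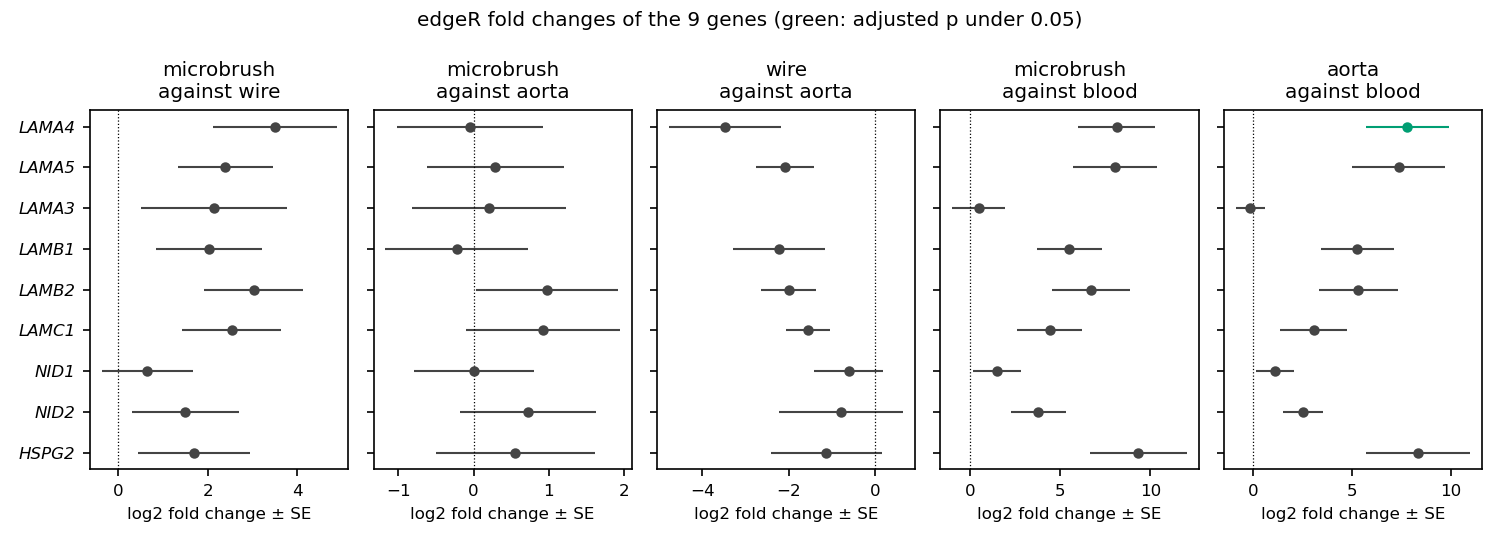
Log2 fold change of each gene (horizontal axis, each panel with its own scale; vertical axis, gene) in 5 comparisons of groups, wire against blood not drawn, with bars of 1 standard error from the edgeR fits, a dotted line at 0, and green for an adjusted p under 0.05, which is LAMA4 in aorta against blood. All 9 genes lie right of 0 for microbrush against wire, around 0 for microbrush against aorta, and the tested genes lie left of 0 for wire against aorta.

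In microbrush against aorta no member was called. The fitted log2 differences ran from -0.22 for LAMB1 to 0.97 ± 0.94 for LAMB2, with 0.92 ± 1.02 for LAMC1, 0.72 ± 0.90 for NID2 and 0.55 ± 1.06 for HSPG2. LAMA5 was at 0.29, LAMA3 at 0.20, NID1 at 0.00 and LAMA4 at -0.04. edgeR called 0 members in either direction and none had an unadjusted p under 0.05, against 805 genes in all; over 16776 genes percent called was 0.0596 higher and 0.0656 lower. The standard errors of about 1 leave room for differences of several fold each way. With limma-voom LAMB1 was at -1.77 (unadjusted p 0.00779, adjusted 0.107) and LAMA4 at -1.48 (0.0496 and 0.303), with no member called, 2755 genes at an unadjusted p under 0.05 and a median of -0.18 over the members. With RLE scaling in place of TMM the differences of LAMA5, HSPG2 and NID1 changed sign, to -0.28, -0.09 and -0.21.

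Wires against aorta asks how far the negative control lay from a vessel wall. All 8 tested members were lower in wires, with a median of -1.78 against -0.29 over 15313 genes; LAMA3 was too low to be tested. LAMA4 was at -3.48 ± 1.30, LAMB1 at -2.22 ± 1.06, LAMA5 at -2.08 ± 0.67, LAMB2 at -2.003 ± 0.64 and LAMC1 at -1.56 ± 0.50. HSPG2 was at -1.13 ± 1.28, NID2 at -0.79 ± 1.44 and NID1 at -0.62 ± 0.79. edgeR called 0 of these, with adjusted p from 0.142 to 0.934, 4 members and 1890 genes at an unadjusted p under 0.05, and percent called 2.8 higher and 0.764 lower over all genes. DESeq2 called 3 members lower, where it called 3.28% of all genes lower. Without wire 4 edgeR called 1 member, LAMA5, at -2.80 with an adjusted p of 0.0421. Over the fits that left out 1 library, edgeR called 0.399% to 9.55% of all genes. Without wires 2 and 3 it called 1 member, LAMA4, at -2.50 with an adjusted p of 0.0103, where it called 8.47% of all genes. The wires lay wholly below aorta for 5 of 9 members, LAMA4, LAMA5, LAMB1, LAMB2 and LAMC1, as 13.7% of all genes did. Marker sums of smooth muscle, fibroblasts and pericytes were also lower in wires. Endothelial markers went the other way, with all 6 measured higher in wires, a median of 1.64 and 2 called higher by edgeR. Smooth muscle sums were 1667 to 9890 CPM in wires and 24179 to 50168 in aorta, with 4 of 8 markers called lower by edgeR. Fibroblast sums were 35.2 to 445 and 2796 to 6885 CPM, and pericyte sums 5.55 to 231 and 1099 to 3372 CPM, with 2 of 6 called lower in each list. Their part in the result was not tested.

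Against blood the vessel samples stood higher for most members. In aorta against blood edgeR called 1 of 9 higher, LAMA4, at 7.80 ± 2.09 with an adjusted p of 0.0210, and 0 lower; percent called was 0.985 higher and 0.505 lower over 16046 genes. Leaving out any 1 aorta library, blood 1 or blood 3 removed that call. HSPG2 was at 8.35 (adjusted p 0.0794), LAMA5 at 7.36 (0.0847), LAMB1 at 5.28 (0.138), LAMB2 at 5.33 (0.173), LAMC1 at 3.07 (0.514), NID2 at 2.52 (0.225), NID1 at 1.12 (0.764) and LAMA3 at -0.14 (0.944), all by edgeR. Without blood 2 the edgeR fit called 7 members, all but LAMA3 and NID1, and 4875 genes in all; DESeq2 on all libraries also called 7, where it called 6.23% of genes higher. Aorta lay wholly above blood 1 and 3 for 8 of the 9, all but LAMA3, as 24.5% of all genes did.

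Microbrush against blood uses the same blood libraries, so its values are not independent of those from aorta. HSPG2 was at 9.34, LAMA4 at 8.13, LAMA5 at 8.06, LAMB2 at 6.73, LAMB1 at 5.50, LAMC1 at 4.42 and NID2 at 3.80 on the log2 scale. NID1 was at 1.51 and LAMA3 at 0.49. edgeR called 0 members, with 7 members and 709 genes at an unadjusted p under 0.05, and percent called was 0 higher and 0.0119 lower over 16874 genes. DESeq2 called 7 members higher, where it called 2.42% of genes higher, and limma-voom called 5, where it called 242 genes higher and 392 lower. Microbrush libraries lay wholly above blood for LAMA5, LAMB2 and HSPG2, as 0.889% of all genes did. In wire against blood 7 members were tested and edgeR called 0, with 3 members and 148 genes at an unadjusted p under 0.05; percent called was 0 in both directions. HSPG2 was at 7.51, LAMA5 at 5.58 and LAMB2 at 3.63, and DESeq2 called 2 members higher, where it called 0.911% of all genes. Without blood 2 edgeR called 1 member, LAMA5, at 5.18 with an adjusted p of 0.0387, where it called 0.0486% of all genes. On the scaled levels wires lay wholly above blood for LAMA5, LAMB2 and LAMC1, where 3.55% of tested genes did. Without scaling LAMB2 and LAMC1 overlapped, with 8.36 and 10.8 CPM in wire 3 and 9.61 and 46.2 CPM in blood 3. LAMA3 lay wholly below blood, on 4, 0, 0 and 4 counts in wires 1 to 4. Of tested genes 10.7% lay below, but LAMA3 was too low to be tested here, so this is not its background.

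Kidney and liver arteries could be compared within the microbrush. Of 8 members tested 3 were higher in the kidney, with a median of -0.29 against 0.50 over all genes. LAMA4 was at 1.004 ± 1.14 and NID2 at -0.89 ± 1.07. edgeR called 0 members, none had an unadjusted p under 0.05, against 238 genes in all, and percent called was 0 in both directions; DESeq2 called 2 genes higher and 64 lower over the table. LAMA4 had 144 ± 134 CPM (SD, n = 5) in kidney and 80.0 ± 116.96 (n = 5) in liver libraries.

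Ratios within a library need no scaling between libraries. The share of LAMA4 in the counts of LAMA4 plus LAMA5 was 14.9 ± 9.80% (SD, n = 10) in microbrush libraries, 6.01 ± 9.33% (n = 4) in wires and 20.3 ± 4.97% (n = 4) in aorta. Within the microbrush it was 21.5 ± 8.15% (n = 5) in kidney and 8.29 ± 6.42% (n = 5) in liver, a difference of 13.2 percentage points. The exact two-sided permutation test gave p = 0.0238 for it and an adjusted p of 0.143 over 12 tests. Kidney libraries ran from 10.3% to 33.3%, and liver libraries from 0% in microbrush 4 to 16.6% in microbrush 9, so the organs overlapped.

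The share of LAMB1 in LAMB1 plus LAMB2 was 20.4 ± 11.9% (n = 10) in microbrush libraries and 38.3 ± 3.47% (n = 4) in aorta. Of the 10 microbrush libraries 9 lay below the lowest aorta library at 35.1%, and microbrush 6 was at 42.1%. The difference of -17.9 points had p = 0.0120 in the exact two-sided permutation test and an adjusted p of 0.143. Wires held both extremes, 77.8% in wire 1 (Wilson 95% interval 73.1% to 81.8%) and 0% in wire 3, where 93 counts allow up to 3.97% by the same interval. The share of NID1 in NID1 plus NID2 was 44.4 ± 22.5% (n = 9) in microbrush libraries, 57.3 ± 38.0% (n = 3) in wires and 49.3 ± 11.5% (n = 4) in aorta. None of the 12 comparisons of shares passed the adjustment. Intervals cover counting error only.

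**Figure D4:**
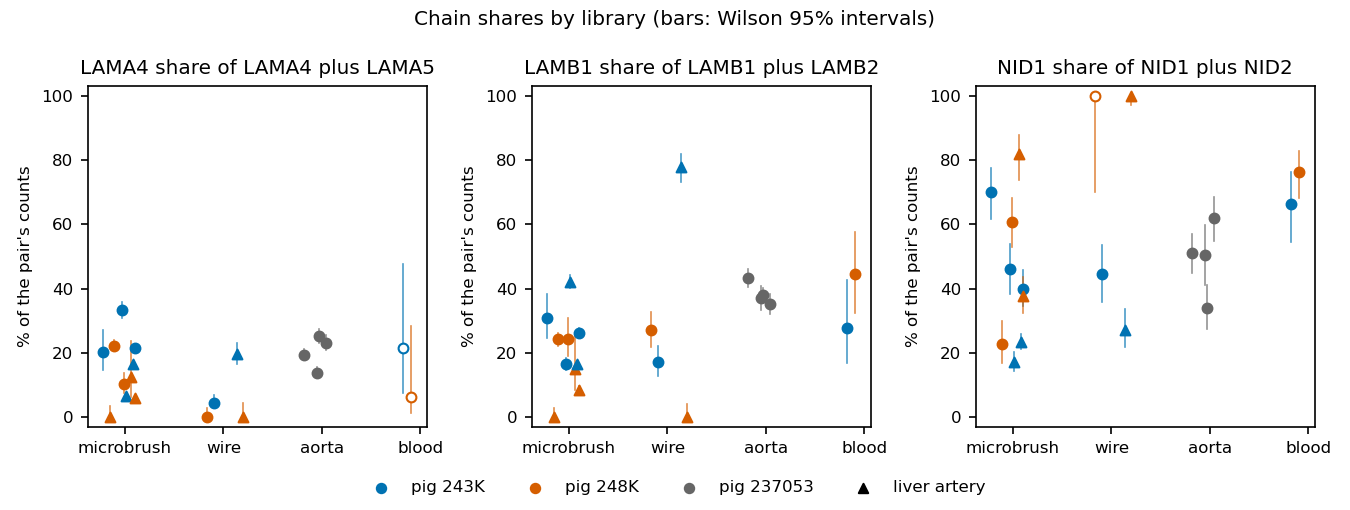
Share of LAMA4 in LAMA4 plus LAMA5, of LAMB1 in LAMB1 plus LAMB2, and of NID1 in NID1 plus NID2, in percent of the pair's counts, with 1 point per library by group, coloured by pig, triangles for liver arteries, bars for Wilson 95% intervals and open symbols where the pair had under 20 counts. Open symbols and blood entered no test. The 4 aorta libraries sit between 35.1% and 43.2% for LAMB1, above 9 of 10 microbrush libraries.

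HSPG2 took a steady share of the 9 genes' counts in aorta, 49.2% to 55.3%. The share was 32.3% to 54.2% in 8 microbrush libraries, 72.8% in microbrush 6 and 11.5% in microbrush 4. Wires 1 and 4 had 74.1% and 73.7%, wires 2 and 3 had 17.6% and 0.937%, and blood 1 and 3 had 4.52% and 8.14%. This measure was chosen after its values were seen and was not tested.

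**Figure D5:**
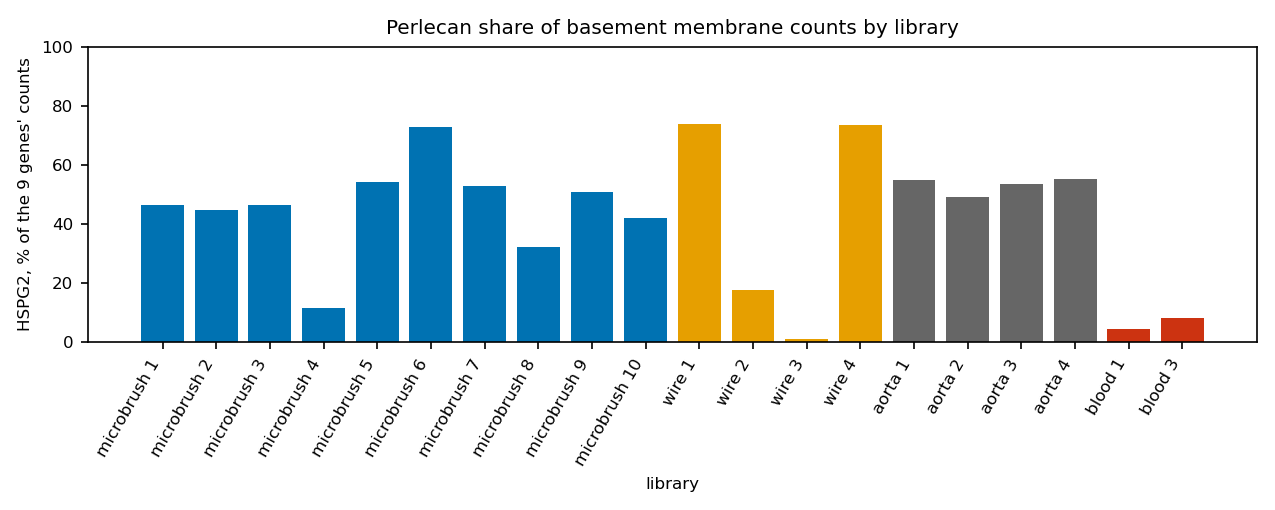
HSPG2 counts as a percent of the summed counts of the 9 genes (vertical axis) in each library except blood 2, with bars coloured by group. The 4 aorta bars lie between 49.2% and 55.3%, and wires 1 and 4 stand at 74.1% and 73.7% against 17.6% and 0.937% in wires 2 and 3.

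Other genes of the membrane were counted in the same fits. Of 21 other basement membrane genes 20 were in the table. In microbrush against wire 17 of 20 were higher, 8 at an unadjusted p under 0.05 and 0 called by edgeR, with a median of 2.15. COL4A2, a chain of type IV collagen, had 1886 ± 2173 CPM (n = 10) in microbrush libraries, 54.4 ± 92.6 (n = 4) in wires, 1283 ± 421 (n = 4) in aorta and 9.27 ± 5.19 (n = 2) in blood. In aorta against blood edgeR called COL4A5 (5.87 ± 1.69, adjusted p 0.0395) and COL4A6 (4.15 ± 1.12, adjusted p 0.0221), the other 2 type IV chains named here, and no other gene of the list. Of all genes, 0.985% were called higher there. The call of COL4A5 was lost without any 1 library but blood 2, and that of COL4A6 without blood 1, blood 3, aorta 3 or aorta 4. COL15A1, a collagen of the outer membrane zone, was at -5.06 ± 1.45 in wire against aorta with an edgeR adjusted p of 0.0946.

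Receptors of laminin and other matrix were called both ways. Of the 21 listed 17 were in the table, and in wire against aorta edgeR called 2 lower and 2 higher, where percent called was 0.764 and 2.8. ITGA7, the alpha subunit of the muscle laminin receptor, fell by 6.61 ± 0.98 (adjusted p 0.00680), from 154 ± 56.6 CPM in aorta to 1.46 ± 1.68 in wires. DMD, or dystrophin, which ties dystroglycan to actin, fell by 4.90 ± 0.82 (adjusted p 0.00975), from 354 ± 104.98 to 10.9 ± 7.28 CPM. ITGA2, a collagen and laminin receptor subunit also found on platelets, was higher by 5.83 ± 1.19 (adjusted p 0.0225), at 143 ± 204 CPM in wires and 2.50 ± 1.42 in aorta. ITGA6, the alpha subunit of the epithelial and platelet laminin receptors, was higher by 5.29 ± 1.15 (adjusted p 0.0297), at 41.2 ± 47.1 and 1.04 ± 0.69 CPM. ITGA6 was chosen after its values were seen. MCAM, an adhesion molecule that binds LAMA4-containing laminin, was at -4.13 ± 1.13 in the same comparison and did not pass, with an adjusted p of 0.0764. The calls of ITGA7 and DMD were kept in all 15 alternatives run, the 8 that leave out 1 library included. Those of ITGA2 and ITGA6 were lost without wire 3 or any 1 aorta library, with an adjusted p of up to 0.108 and 0.138 by edgeR. The 2 platelet markers measured of 4 summed to 144 to 2123 CPM in wires and 21.8 to 27.3 in aorta, and their part was not tested. In aorta against blood ITGA7 was the 1 receptor called, at 7.15 ± 2.09 with an edgeR adjusted p of 0.0451, where 0.985% of all genes were called higher. That call was lost without any 1 library but blood 2.

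Of 6 other laminin chains 5 were in the table, and edgeR called none in any comparison of groups, with 1 at an unadjusted p under 0.05 in wire against aorta and 2 in aorta against blood. LAMB3, a beta chain of epithelial laminin, was at 2.75 ± 1.62 in microbrush against wire. Of 13 genes of matrix turnover 12 were measured and edgeR called 1, HPSE, a heparanase that cuts heparan sulfate chains such as those of perlecan. It was higher in wire against aorta by 1.89 ± 0.46 (adjusted p 0.0460), at 127 ± 50.7 and 36.3 ± 15.2 CPM, and was chosen after its values were seen. Of all genes, 2.8% were called higher in that comparison. That call was lost without wire 1, wire 3 or any 1 aorta library. Of 10 genes that glycosylate dystroglycan or heparan sulfate 8 were measured and edgeR called none, with 1 at an unadjusted p under 0.05 in microbrush against blood.

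Likeness to the mean profile of the 9 genes was described over the 18 microbrush, wire and aorta libraries, which differ widely in depth, in detected genes and in smooth muscle marker level. Among the members the Spearman rho with that mean was 0.961 for HSPG2, 0.959 for LAMC1, 0.946 for LAMA5, 0.915 for NID2, 0.895 for LAMB2 and LAMA4 and 0.890 for LAMB1. LAMA3 and NID1 were at 0.413 and 0.307. Each member is part of that mean, which raises its rho, so these values are not comparable with those of other genes. Of 9682 genes the likest with a symbol were RCN3 at 0.981, DST at 0.979, KIF1C at 0.977, CASKIN2 at 0.975 and LIMS2 at 0.975.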

How the data were processed

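Per the labels, the 21 pig libraries were made with SMARTer Pico from total RNA, taken with a scaled-down RNAdvance Tissue protocol. The authors deposited estimated counts per Ensembl gene, merged over samples and not scaled between them. Salmon and DESeq2 were used by the authors with genome build Sscrofa11.1, per the submitters' processing notes; versions, annotation and strand setting are not given in the sources used here. Counts entered the tests rounded, since 11.9% had decimals. Of 24358 genes 14692 had a symbol. No 2 of the 21 libraries held identical values.

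Fits used only the libraries compared, in edgeR 4.0.16 under R 4.3.3 (filterByExpr, minimum count 10, TMM, robust quasi-likelihood test, Benjamini-Hochberg adjustment over all genes tested, calls at 0.05). DESeq2 1.42.0 and limma 3.58.1 voom with quality weights were alternatives, with RLE scaling, other filters, left-out libraries and pig as a block. Shares of paired chains used libraries with at least 20 counts of the pair and exact two-sided permutation tests in scipy 1.17.1, adjusted over 12. Fits were also run on simulated data with the same spread for every gene and without blood 2, which does not show how they perform on these libraries. Total counts, from 5634 to 11128400, limit precision. The members and lists were chosen with earlier results of these data known. All 9 members are named; from each related list up to 3 genes with the smallest p in microbrush against wire and 2 in aorta against blood could be named.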

Additional observations from a re-analysis of the deposited data

Results flagged for a closer look

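A sample far from the rest of its group was found for 3 of 41 groups of member levels or shares, where chance gives about 1 in 20. LAMA4 was 180 CPM in aorta 4, with the nearest aorta library at 100.7 CPM. LAMB1 was 242 CPM in aorta 4, with the nearest at 127 CPM. LAMC1 was 1274 CPM in microbrush 9, with the nearest microbrush library at 518 CPM. Aorta 4 also had the highest smooth muscle sum of the aorta libraries, 50168 CPM, and microbrush 9 had the second highest of the microbrush libraries, 93384 CPM, and their part in these values was not tested.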

How the results depend on the processing

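Over the alternatives run, 639 member fold changes kept their direction and side of the threshold, 65 newly passed it, 6 no longer passed and 26 changed sign. In kidney against liver only LAMA4 and NID2 entered these counts, and the other members were not counted there. The causes were not tested. For the related genes called, 78 alternatives kept the call and 37 lost it, with no change of sign. Blood 2 and the spread of the microbrush libraries limit what the counts can resolve. RLE scaling moved the median of all genes in microbrush against wire from 0.17 to 0.60.

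Members called by edgeR or the named tool changed as follows. In aorta against blood, 3 were called with RLE scaling and with no filter, 5 with a minimum count of 50 and with a common fit of all libraries, and 7 with DESeq2, limma-voom and without blood 2. In microbrush against blood, 1 was called with a minimum count of 50, 7 with DESeq2, and 5 with limma-voom and the common fit. In wire against aorta, 3 were called with DESeq2 and 1 without wires 2 and 3, a setting chosen after seeing the data. In wire against blood, 2 were called with DESeq2 and with limma-voom and 1 without blood 2. For the product of device and pig, 1 was called with DESeq2 and 1 without microbrush 4.

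Of all genes tested, called counts and percents were as follows. Microbrush against wire had 96 higher and 5 lower with DESeq2 (0.614%), 48 in the common fit (0.272%) and 46 in pig 248K alone (0.279%), against 0 in the edgeR fit. Microbrush against aorta, with 21 (0.125%), had 39 with no filter (0.178%), 206 with DESeq2 (1.23%), 757 with limma-voom (4.51%), 49 in the common fit (0.278%) and 36 without microbrush 4 (0.215%). Microbrush against blood, with 2, had 6 with RLE scaling (0.0356%), 13 with no filter (0.0598%), 9 with a minimum count of 50 (0.0809%), 423 with DESeq2 (2.51%), 634 with limma-voom (3.76%), 96 in the common fit (0.545%), and 0 without blood 2 and microbrush 4. Wire against aorta, with 546, had 1116 with DESeq2 (7.29%), 246 in the common fit (1.40%) and 1411 without wires 2 and 3 (8.47%). Wire against blood, with 0, had 132 with DESeq2 (0.911%), 78 with limma-voom (0.539%), 3 in the common fit (0.0170%) and 8 without blood 2 (0.0486%). Aorta against blood, with 158 higher and 81 lower, had 271 higher and 231 lower with RLE scaling (3.13%), 610 with no filter (2.82%) and 407 with a minimum count of 50 (4.40%). It had 160 in the common fit (0.908%), 1503 with DESeq2 (9.37%), 2708 with limma-voom (16.9%) and 4875 without blood 2 (28.5%). Kidney against liver had 1 with no filter (0.00466%) and 66 with DESeq2 (0.440%).

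Among the fold changes counted, 17 of the 26 changes of sign were in microbrush against aorta. There HSPG2 was -0.088 with RLE scaling and DESeq2 and -0.92 with limma-voom, and LAMA5 was -0.28, -0.28 and -0.92. NID1 was -0.21 with RLE scaling and DESeq2 and -0.031 with no filter and -0.034 with a minimum count of 50. With limma-voom LAMB2 was -0.18 and NID2 -0.019, and LAMA4 was 0.11 without microbrush 4. With limma-voom HSPG2 was -0.11 in microbrush against wire, LAMA3 was -0.018 in microbrush against blood and NID2 was 0.013 in kidney against liver. NID2 was 0.19 in wire against aorta without wires 2 and 3. LAMA3 was 0.048 with no filter and 0.19 in the common fit in aorta against blood. The LAMB1 share in wire against aorta was 2.27 points with at least 100 counts.

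In kidney against liver each microbrush library was left out singly. No member was called then, and the LAMA4 share difference ran from 10.2 to 15.9 points. In the comparisons of groups, libraries of wire, aorta and blood were left out singly. Of the microbrush libraries only microbrush 4 was left out there, so the ranges for microbrush comparisons are over the other group's libraries. This gave 0 to 7 members called in aorta against blood and 0 to 1 in wire against aorta and in wire against blood. The share of all genes called then ran from 0.221% to 28.5% in aorta against blood, 0.399% to 9.55% in wire against aorta, 0% to 0.0486% in wire against blood, 0.0407% to 0.0700% in microbrush against aorta and 0.0168% to 0.0228% in microbrush against blood. Without each aorta library or, for LAMA3, each aorta or blood library, fold changes ran from -0.16 to 0.22 for LAMA4, -0.33 to 0.031 for LAMB1 and -0.11 to 0.14 for NID1 in microbrush against aorta, and from -0.23 to 0.36 for LAMA3 in aorta against blood. The LAMB1 share difference ran from -20.2 to 5.77 points in microbrush against wire and from -23.7 to 2.27 in wire against aorta, and the NID1 share difference from -27.9 to 8.52 and from -13.4 to 23.0.

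The labels give no replicate numbers. With pig as a replicate block, microbrush against blood had 0 calls and NID2 was -0.62 in wire against blood; no member was called under the block.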
